A study of Peromyscus maniculatus with 16 samples.

Results

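Described here are 11 of the 16 deer mice (Peromyscus maniculatus) whose liver RNA was sequenced, namely the 5 animals that developed steatosis on a high fat diet (S) and the 6 animals kept on chow (C). They were chosen by the labels for diet and steatosis. The other 5 animals received the same diet without developing steatosis (NS), shared the fit, and are given only where the difference between S and NS was tested or to place a value. In the HFD, fat supplied 58% of the energy and sucrose was present. It was given for 28 weeks from an age of 3 to 4 months, and all animals were 10 months old at the end. C held 6 males, of which C1 belonged to the SM2 stock (P. maniculatus sonoriensis) and C2 to C6 to the BW stock (P. maniculatus bairdii). S held S1, a male of the SM2 stock, S3, a male of the BW stock, and S2, S4 and S5, females of the BW stock. Both stocks descend from wild-caught animals and are outbred. All 3 females of the study were in S, so sex and steatosis cannot be told apart in the whole comparison. Total counts ran from 6374518 to 11349971 in C and from 4640733 in S3 to 10892425 in S4, and S2 had 4865756.

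Steatosis is the storage of triglyceride in hepatocytes. The fatty acids come from the diet, from adipose tissue and from de novo lipogenesis, in which cytosolic citrate is split to acetyl-CoA, carboxylated and elongated, and the genes for these steps are driven by the transcription factor encoded by Srebf1. The liver disposes of fat by oxidation in mitochondria and by export in lipoproteins.

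Levels are given as CPM, which are counts relative to the TMM-scaled total of each library, for S in the order S1 to S5 and for C as the lowest, the median and the highest of the 6 animals. A gene was called when its Benjamini-Hochberg adjusted p over all genes was under 0.1 and its level differed at least 2-fold. Of 12639 genes tested, 391 (3.09%) were called higher and 122 (0.965%) lower in S, and the adjusted p alone was passed by 681 higher genes (5.39%) and 678 lower genes (5.36%). The median log2 fold change of all genes was 0.10. Every S animal lay above every C animal in 235 genes (1.86%) and below in 294 genes (2.33%). Among the 122 lower genes, 58 lay below the C range in all 5 S animals, 36 in 4 and 12 in 3. Among the 391 higher genes, 83 lay above the C range in all 5 S animals, 121 in 4 and 103 in 3. Scaled by total counts instead of TMM, the median of all genes was 0.33, and 843 genes were called higher and 84 lower, so that 90.9% of the calls were higher, against 76.2% with TMM.

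Some S libraries stood apart from the rest. Taking the genes whose level, after adding 1 CPM, was at least 4 times that of every other animal of the study, S3 had 127, S5 had 17, S1 had 14, C1 had 10 and NS1 had 6, and no other animal had more than 4. In a principal component analysis, the first component (23.7% of the variance) set the SM2 animals C1, NS1 and S1 apart from the BW animals. On the second (19.5%) S3 lay at 66.6 while no other animal exceeded 27.1, and on the fourth (8.34%) S5 lay at 49.2. S3 was the highest S animal in 194 of the 391 genes called higher. Without S3, 168 genes (1.35%) were called higher and 77 (0.62%) lower, of which 152 and 65 were also called with S3. Without S3 and S5 together, 122 and 69 genes were called, and of the 102 called genes named in this text 64 were not. For some of these, log2 fold changes stayed about as large or grew, as for Cd36 (1.08, against 1.18 with all animals), Fabp1 (1.68 against 1.42) and Cxcl1 (-5.42 against -3.88). For others they collapsed, as for Col1a1 (-0.49 against 5.56), Top2a (0.73 against 3.78) and Mmp2 (0.87 against 4.10). The shallow libraries S2 and S3 left out together gave 79 and 35 genes. Leaving out C4, C5 or C6 also reduced the calls, to 151 higher and 68 lower genes without C4, to 167 and 80 without C5 and to 129 and 63 without C6, while 376 and 145 were called without C2.

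The SM2 animal of each side changed the overall count little. In the BW animals alone, 455 genes (3.69%) were called higher and 155 (1.26%) lower, of which 315 and 96 were also called with the SM2 animals present. The plot of calls in each fit shows that the omission of S3, C4, C5 or C6 removed most calls, while the omission of S1 or C1 did not. In all 31 alternative fits and thresholds, 19 of the higher and 14 of the lower genes were called. With each S and each C animal left out in turn, 68 and 44 were called every time. Where a gene named below was not called once a single animal was left out, that animal is given with the range of the log2 fold change of the gene over all alternatives in which it was tested.

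**Figure D1:**
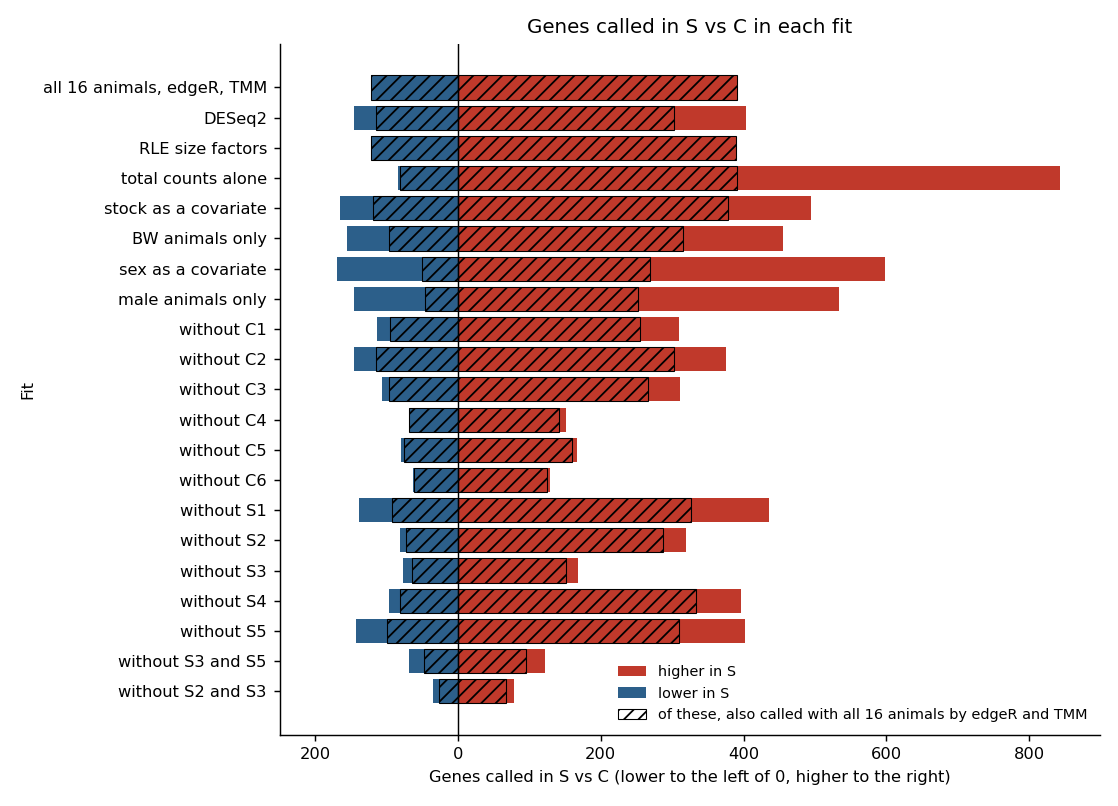
Number of genes called in S vs C in each fit, with genes higher in S to the right of 0 and genes lower in S to the left, and the hatched part marking genes that were also called in the fit of all 16 animals by edgeR and TMM. The fit without S3 called 168 genes higher and 77 lower, against 391 and 122 with all animals.

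The 43 gene lists were read against the C range in each animal. Most members of the respiratory chain list lay below that range in every S liver, as did 25 to 33 of the 54 members for amino acid catabolism. The lists for lipogenesis, mitosis, matrix and macrophages were high in some S livers and not in others. The plot of gene lists by animal shows both patterns. Of all genes tested, 24.9%, 20.6%, 26.9%, 18.3% and 22.6% lay above every control in S1 to S5 and 20.7%, 20.3%, 23.3%, 13.3% and 15.7% below every control, and counts of members beyond the C range are to be read against these shares. For each list below, the counts are of genes called among those tested, to be read against the 3.09% of all genes called higher, the 0.965% called lower and the 5.36% lower at the adjusted p, and the median is that of the log2 fold change.

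**Figure D2:**
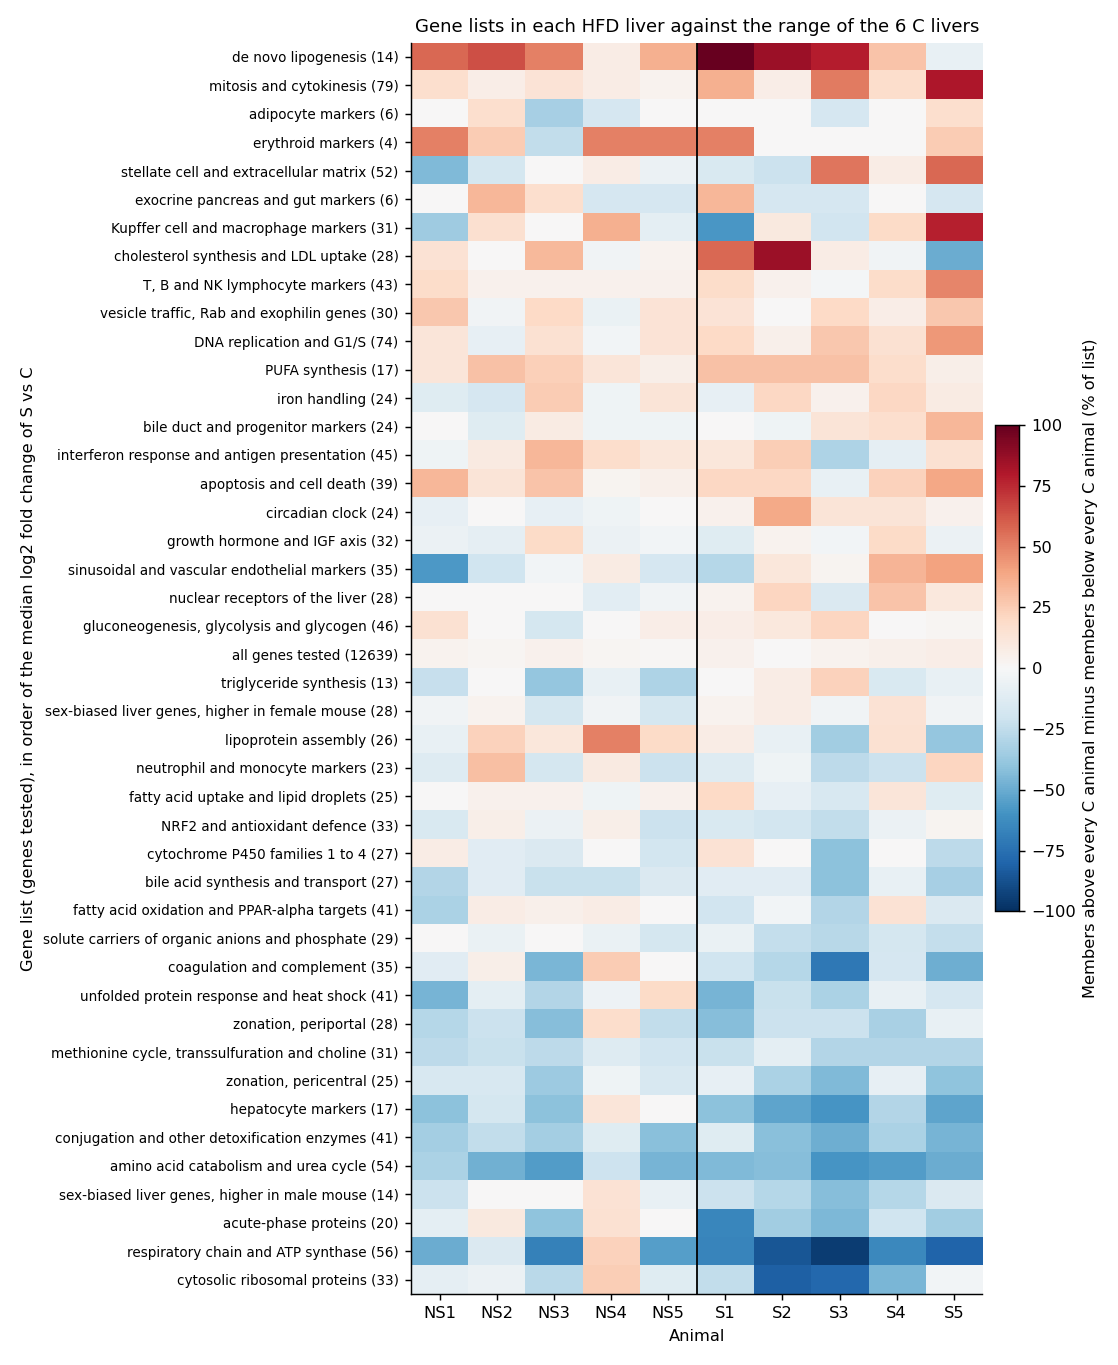
For each gene list (from top to bottom in order of the median log2 fold change of S vs C) and each HFD animal (from left to right), the percentage of list members above every C animal minus the percentage below every C animal. The respiratory chain list is blue in all 5 S animals, with 36 to 53 of 56 members below the C range, and the lipogenesis list has 14, 12, 11, 4 and 2 of 14 members above it in S1 to S5. Of all genes, 20.7%, 20.3%, 23.3%, 13.3% and 15.7% lay below the C range and 24.9%, 20.6%, 26.9%, 18.3% and 22.6% above it in S1 to S5.

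Of 14 genes of fatty acid synthesis (de novo lipogenesis), 7 rose and 0 fell, against 3.09% and 0.965% of all genes (median log2 fold change 1.55, against 0.10 over all genes). The increase was carried by S1, S2 and S3, and S5 stayed within the C range for most members. Srebf1 was measured at 1501, 559, 1011, 521 and 626 CPM in S1 to S5 and at 42.4, 148 and 264 CPM in C (log2 fold change 2.50 ± 0.49 (SE), adjusted p = 0.0198). All S animals lay above all C animals. Acly, which makes cytosolic acetyl-CoA from citrate, had 1058, 1410.3, 869.8, 166 and 51.6 CPM in S and 36.4, 84.8 and 194 CPM in C (log2 fold change 2.83 ± 0.68 (SE), adjusted p = 0.0358). Here S1, S2 and S3 exceeded every control, S4 lay near the highest control and S5 below the C median. S1, S2 and S3 were also the highest for Elovl6, the elongase of saturated fatty acids, with 243, 294, 247, 70.98 and 24.9 CPM in S and 24.4, 29.7 and 70.9 CPM in C (log2 fold change 2.16 ± 0.48 (SE), adjusted p = 0.0287). The remaining members called were Acaca (1.63), the carboxylase that commits acetyl-CoA to synthesis, Me1 (1.45), which supplies NADPH, Pnpla3 (1.98), a lipid droplet protein, and Gpam (1.58), the first acyltransferase of glycerolipid synthesis, all as log2 fold changes. Scd1, the Δ9 desaturase and the most abundant member, did not pass (6868, 4316, 9273, 2881 and 1199 CPM in S and 304, 879 and 4588 CPM in C, adjusted p = 0.124), and its control values overlapped those of S. Without S3, 3 members were called higher, against 1.35% of all genes. Without S3 and S5 together 7 were, against 122 of all 12287 genes tested. Srebf1, Acly and Elovl6 were called with each S and C animal left out in turn, while the call was lost for Acaca without C5, C6, S2 or S3 (0.60 to 1.90), Me1 without S3 (1.00 to 1.80), Pnpla3 without C1, C4, C5, C6, S1, S2 or S3 (1.33 to 2.36) and Gpam without C1, C4, C5, C6, S1, S2 or S3 (1.27 to 2.12).

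**Figure D3:**
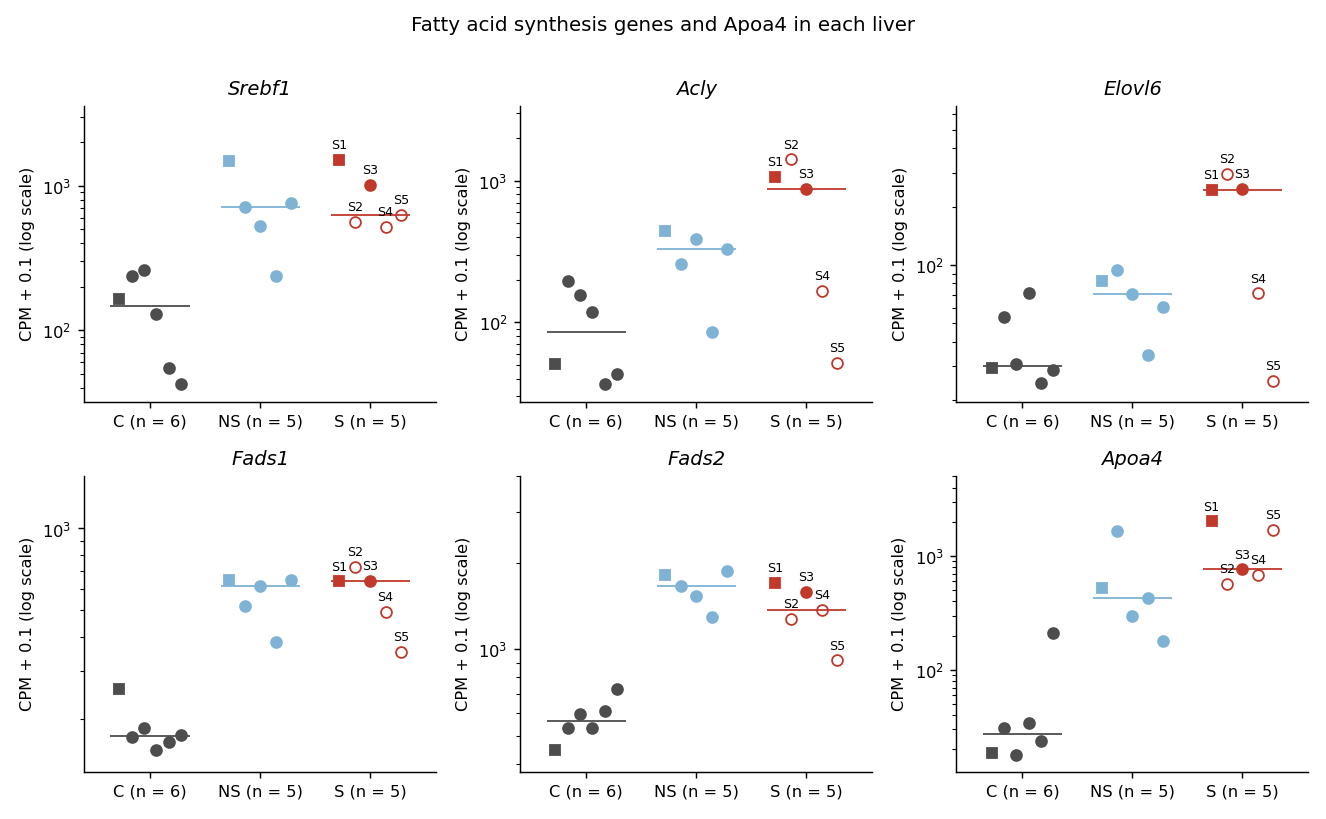
CPM plus 0.1 on a log axis for 6 genes in each C, NS and S animal, with lines at the group medians, squares for SM2 animals, circles for BW animals and open symbols for females. Fads1, Fads2, Srebf1 and Apoa4 are higher in every S animal than in any C animal, while for Acly and Elovl6 S5 lies among the C animals.

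Glycolysis feeds lipogenesis, and its liver enzyme was high in S1 to S4. Pklr, the pyruvate kinase of hepatocytes, had 972, 884, 829, 320.5 and 101 CPM in S and 73.3, 98.6 and 237 CPM in C (log2 fold change 2.31 ± 0.44 (SE), adjusted p = 0.0163), with S5 inside the C range. Of 46 genes of gluconeogenesis, glycolysis and glycogen, 4 rose and 1 fell (median 0.11). The others that rose were Pygb (1.03), a glycogen phosphorylase, Pck2 (1.33), the mitochondrial PEP carboxykinase, and Pkm (1.32), the pyruvate kinase of other cell types. Pkm was high in S3 (90.8 CPM) and S5 (50.3 CPM), while the other S animals had 9.50 to 15.4 CPM and C had 10.8 to 16.99 CPM, and without S3 its log2 fold change was 0.64 (adjusted p = 0.301). Gys2, the liver glycogen synthase, fell (-1.25). Single omissions ended the call for Pkm without C1, C2, C3, C4, C5, C6, S3, S5 or NS2 (-0.15 to 1.80), Pygb without C2, C3, C4, S3 or S5 (0.88 to 1.28), Pck2 without C5 or C6 (1.00 to 1.62) and Gys2 without C4, C5, C6 or S4 (-1.68 to -0.98).

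The desaturases of polyunsaturated fatty acids rose in every S animal. Fads1, the Δ5 desaturase, had 639, 724, 643, 495 and 352 CPM in S and 153, 173 and 258 CPM in C (log2 fold change 1.63 ± 0.20 (SE), adjusted p = 0.00121). Fads2, the Δ6 desaturase, had 1702, 1274, 1585, 1369.5 and 915 CPM in S and 448, 565 and 728 CPM in C (log2 fold change 1.25 ± 0.17 (SE), adjusted p = 0.00363). For both genes the lowest S animal, S5, exceeded the highest control, and both were called in all 31 alternatives. They were the 2 members called of the 17 tested for PUFA synthesis (median 0.27), and 3 more, among them the elongase Elovl5 (0.96, adjusted p = 0.0222) and Lpcat3 (0.92, adjusted p = 0.0144), which places polyunsaturated chains in phospholipids, were higher at the adjusted p but under 2-fold. Of 13 genes of triglyceride synthesis, 1 rose, Gpam, and 0 fell (median 0.04). Gpat4, another glycerol-3-phosphate acyltransferase, was lower at the adjusted p in all S animals, by less than 2-fold (120.2, 161, 167, 129 and 152 CPM in S and 208, 256 and 352 CPM in C, adjusted p = 0.0125).

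Uptake and binding of fatty acids were represented by single genes. Cd36, a fatty acid transporter, had 104, 193, 132, 129 and 202 CPM in S and 33.5, 69.8 and 89.9 CPM in C (log2 fold change 1.18 ± 0.27 (SE), adjusted p = 0.0294). No S animal overlapped with C. Fabp1, the fatty acid binding protein of hepatocytes, had 4852, 6845, 4710.4, 7877 and 2950.4 CPM in S and 200.005, 1861 and 4140.1 CPM in C (log2 fold change 1.42 ± 0.48 (SE), adjusted p = 0.0927), with S5 inside the C range. Hilpda, a lipid droplet protein that restrains lipolysis, fell (log2 fold change -2.80 ± 0.79 (SE), adjusted p = 0.0561), although all S animals, at 0.365 to 1.22 CPM, lay within the C range of 0.156 to 15.1 CPM. These were the 2 genes called higher and 1 lower of 25 tested for uptake and droplets (median -0.07). Of 41 genes of fatty acid oxidation and PPAR-alpha targets, edgeR called 0 (median -0.21), 9 had an unadjusted p under 0.05, and DESeq2 called 0. Cd36 was called with each S and C animal left out in turn. It was not called in the male animals alone (log2 fold change 0.82, adjusted p = 0.186) or without S3 and S5 together (log2 fold change 1.08, adjusted p = 0.102). The call was lost for Fabp1 without C1, C2, C3, C6, S1, S2, S3, S4, NS2, NS3, NS4 or NS5 (1.18 to 1.75) and Hilpda without C5, C6, S2 or S3 (-3.64 to -1.99).

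Cholesterol genes separated the S animals from each other. Of 28 genes of cholesterol synthesis and uptake, 2 rose and 0 fell (median 0.57). The summed level of the list was 5918, 8899, 3995, 3431 and 1439 CPM in S1 to S5, against 2889 to 5472 CPM in C. S2 had 24 and S1 17 of the 28 members above every control, whereas S5 had 2 above and 16 below every control. Of all genes, 20.6% in S2, 24.9% in S1 and 22.6% in S5 lay above and 15.7% in S5 below. Without S5, 9 members rose (median 0.79), and in the BW animals alone edgeR called 0 (median 0.37, 6 at an unadjusted p under 0.05), where DESeq2 was not run. Fdft1, the squalene synthase, had 261, 325, 80.5, 150.1 and 67.1 CPM in S and 46.9, 70.4 and 166 CPM in C (log2 fold change 1.10 ± 0.37 (SE), adjusted p = 0.0931). S1 and S2 exceeded every control, and S3, S4 and S5 lay inside the C range. Fdft1 was not called in the BW animals alone (log2 fold change 0.84), and with single animals left out the call was lost for Fdft1 without C1, C2, C4, C5, C6, S1, S2, S4, NS2, NS3 or NS5 (0.76 to 1.57).

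Apolipoprotein genes moved in opposite directions. Apoa4, a lipoprotein component secreted with triglyceride-rich particles, had 2012, 569, 764, 682 and 1687 CPM in S and 17.8, 27.4 and 212 CPM in C (log2 fold change 4.34 ± 0.74 (SE), adjusted p = 0.0125). The lowest S animal, S2, lay above the highest control, C6, and the other controls did not exceed 34.3 CPM. Apoa2, a component of HDL, fell to 6534, 5714, 5165, 8889 and 5145 CPM in S against 7378, 13387 and 17005 CPM in C (log2 fold change -1.02 ± 0.24 (SE), adjusted p = 0.0325). In all, 1 of 26 lipoprotein genes rose and 2 fell (median -0.02). Apoa4 was called with each S and C animal left out in turn, while the call was lost for Apoa2 without C1, C4, C5, S2, S3 or S5 (-1.18 to -0.79).

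The mitochondrial respiratory chain was lower in S. Of 56 genes for subunits of the complexes and the ATP synthase, 54 had a negative log2 fold change and 48 were lower at the adjusted p, against 5.36% of all genes, with a median of -0.60. Most differences were smaller than 2-fold, and 2 genes were called. Ndufb9, a subunit of complex I, had 281, 317, 226, 404 and 423 CPM in S and 441, 717 and 924 CPM in C (log2 fold change -1.09 ± 0.24 (SE), adjusted p = 0.0281), and all S animals lay below all controls. Cox7a1, an isoform of a cytochrome c oxidase subunit, had 4.14, 1.30, 1.69, 1.48 and 2.57 CPM in S and 4.38, 5.33 and 9.15 CPM in C (log2 fold change -1.40 ± 0.32 (SE), adjusted p = 0.031), again without overlap. The members below every control numbered 38, 49, 53, 36 and 46 of 56 in S1 to S5, against 20.7%, 20.3%, 23.3%, 13.3% and 15.7% of all genes. Without S3, 22 members were lower at the adjusted p, against 2.54% of all genes, and the median was -0.52, and with 1 S or C animal left out those lower at the adjusted p numbered 21 (without C4) to 49 (without C2). Without S3 and S5 together, 6 were lower at the adjusted p (median -0.56), against 139 of all 12287 genes tested in that fit. Scaling by total counts instead of TMM moved the median of all genes to 0.33 and that of this list to -0.37, which is -0.70 relative to all genes. Cox7a1 was called with each S and C animal left out in turn, while the call was lost for Ndufb9 without C4 or S3 (-1.47 to -0.84).

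Ribosomal protein genes had the same median with another distribution over the animals. Of 33 tested, all had a negative log2 fold change (median -0.60), and with total counts the median was -0.36, which is -0.70 relative to all genes. By edgeR 0 were called, 16 were lower at the adjusted p, 27 had an unadjusted p under 0.05 and DESeq2 called 0. Members below every control numbered 8, 27, 26, 15 and 1 of 33 in S1 to S5, against 20.7%, 20.3%, 23.3%, 13.3% and 15.7% of all genes, so that S1 was near the share of all genes and S5 under it. S2 and S3 had the lowest total counts of S, and S4 had the highest. Rpl4, the most abundant, had 761, 493, 578, 582 and 667 CPM in S and 565, 778 and 978 CPM in C (log2 fold change -0.36 ± 0.17). With 1 S or C animal left out, the members lower at the adjusted p numbered 2 (without C4) to 26 (without C2). Without S3 there were 3, against 2.54% of all genes.

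Some genes of amino acid breakdown fell. Of 54 genes of amino acid catabolism and the urea cycle, 0 rose, 5 fell and 21 were lower at the adjusted p (median -0.46), where 0.965% of all genes were called lower and 5.36% lower at the adjusted p. Between 25 and 33 members lay below every control in each S animal, against 13.3% to 23.3% of all genes. With 1 S or C animal left out, the members lower at the adjusted p numbered 9 (without C6 or S3) to 20 (without C2) and those called lower 2 (without C3) to 6 (without C2, S1 or S5). Without S3 they were 9 and 3, against 2.54% and 0.62% of all genes. Without S3 and S5 together, 7 were lower at the adjusted p, against 139 of all 12287 genes tested in that fit. Prodh, the first enzyme of proline oxidation, had 178, 129, 118, 162 and 240.4 CPM in S and 293, 368 and 512 CPM in C (log2 fold change -1.18 ± 0.20 (SE), adjusted p = 0.0125). Gpt, the alanine aminotransferase, had 734, 446, 530.3, 319.8 and 323 CPM in S and 775, 933 and 1455 CPM in C (log2 fold change -1.12 ± 0.24 (SE), adjusted p = 0.0272). For both genes no S animal reached the lowest control. Tdo2 (-1.07) and Acmsd (-1.58), which act in tryptophan breakdown, fell as well. Prodh was called with each S and C animal left out in turn, while the call was lost for Gpt without C3 (-1.36 to -0.69), Tdo2 without C3, C4, C5, C6, S1, S2, S3, S4 or S5 (-1.36 to -0.82) and Acmsd without C1, C3, C4, C5, C6, S2, S3, S4, S5 or NS3 (-1.90 to -1.05).

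Methyl group metabolism changed in both directions. Of 31 genes of the methionine cycle, transsulfuration and choline, 3 rose and 4 fell (median -0.34), against 3.09% and 0.965% of all genes. Gnmt, which disposes of methyl groups of S-adenosylmethionine on glycine, had 230.2, 629.6, 391, 771 and 630.3 CPM in S and 1556, 2373 and 4806 CPM in C (log2 fold change -2.29 ± 0.38 (SE), adjusted p = 0.0125). Nnmt, which methylates nicotinamide, had 52.1, 18.9, 25.7, 37.7 and 48.8 CPM in S and 109, 160.2 and 349.7 CPM in C (log2 fold change -2.39 ± 0.41 (SE), adjusted p = 0.0125). Neither gene overlapped between S and C, and both were called in all 31 alternatives. Sardh (-1.02), which degrades the sarcosine that Gnmt makes, and Etnk2 (-1.01), an ethanolamine kinase, also fell. Higher were Chka (1.06), a choline kinase, and Gclc (1.09), the catalytic subunit of the enzyme that limits glutathione synthesis. Gclc had 445, 728, 1280.1, 721 and 924 CPM in S and 285, 394 and 462 CPM in C, with S1 inside the C range. Leaving out 1 animal ended the call for Sardh without C1, C2, S4 or S5 (-1.16 to -0.80), Etnk2 without C1, C2, C6, S2 or S4 (-1.08 to -0.77), Chka without C1, C3, C4, C5, C6, S1 or S5 (0.58 to 1.45) and Gclc without S3 (0.72 to 1.34).

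Some genes of detoxification fell. Ugt2a3, a UDP-glucuronosyltransferase, had 82.4, 37.1, 38.1, 29.7 and 35.5 CPM in S and 363, 663 and 903 CPM in C (log2 fold change -3.86 ± 0.45 (SE), adjusted p = 0.00121). Papss2, which makes the sulfate donor PAPS and was on no list, had 256, 307, 386, 335 and 275 CPM in S and 436, 677 and 804 CPM in C (log2 fold change -1.07 ± 0.18 (SE), adjusted p = 0.0125). All S animals were below all controls for both. Ugt2a2, which is close to Ugt2a3 in sequence, fell as well (-4.40), but the C values spanned 0.867 to 79.1 CPM, and the split of reads between such paralogs is uncertain. Of 41 conjugation and other detoxification genes, 0 rose, 5 fell and 11 were lower at the adjusted p (median -0.41), against 0.965% called lower and 5.36% lower at the adjusted p of all genes, and with 1 S or C animal left out those lower at the adjusted p numbered 5 (without C6) to 11 (without C2). Besides both Ugt2a genes, these were Nnmt, the alcohol dehydrogenase Adh7 (-2.39) and Por (-1.13), the reductase that passes electrons to all microsomal cytochrome P450 enzymes. Of 27 genes of cytochrome P450 families 1 to 4, 1 rose and 2 fell (median -0.14), namely Cyp1a1 (1.51), Cyp3a13 (-1.11) and Cyp2d22 (-1.25). Bile acid synthesis and transport had 1 of 27 genes lower and 0 higher (median -0.16). This was Cyp7b1, an oxysterol hydroxylase, with 33.7, 14.1, 19.1, 18.3 and 7.72 CPM in S and 19.6, 48.4 and 147 CPM in C (log2 fold change -1.74 ± 0.47 (SE), adjusted p = 0.0497). The call was lost for Por without C4, C5, C6, S1, S2, S3, S4 or S5 (-1.41 to -0.86), Cyp1a1 without C1, C4, C5, C6, S2, S3 or S5 (1.29 to 1.74), Cyp3a13 without C6 or S3 (-1.50 to -0.77), Cyp2d22 without C1 (-1.49 to -0.88), Adh7 without C3, C4, C6, S1, S3 or S4 (-4.29 to -2.02) and Cyp7b1 without C4 or C6 (-2.10 to -1.23).

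Membrane transporters fell steeply in single cases. Slc17a1, a phosphate and urate transporter, had 1.22, 0.371, 0.188, 10.3 and 0.763 CPM in S and 28.5, 66.6 and 379 CPM in C (log2 fold change -5.64 ± 0.92 (SE), adjusted p = 0.0125). Its relative Slc17a3 had 129, 75.2, 63.6, 71.4 and 73.5 CPM in S and 144, 265 and 363 CPM in C (log2 fold change -1.67 ± 0.29 (SE), adjusted p = 0.0125). There was no overlap for either, and both were called in all 31 alternatives. Of 29 solute carriers of organic anions and phosphate, 3 rose and 2 fell (median -0.21), against 3.09% and 0.965% of all genes. Those that rose were the lactate carrier Slc16a1 (1.21), its relative Slc16a13 (2.21) and the phosphate carrier Slc34a2 (1.32). Slc16a1 was called with each S and C animal left out in turn, while the call was lost for Slc16a13 without S4 (1.75 to 2.52) and Slc34a2 without C1, C4, C5, C6, S1, S2 or S3 (0.99 to 1.77).

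**Figure D4:**
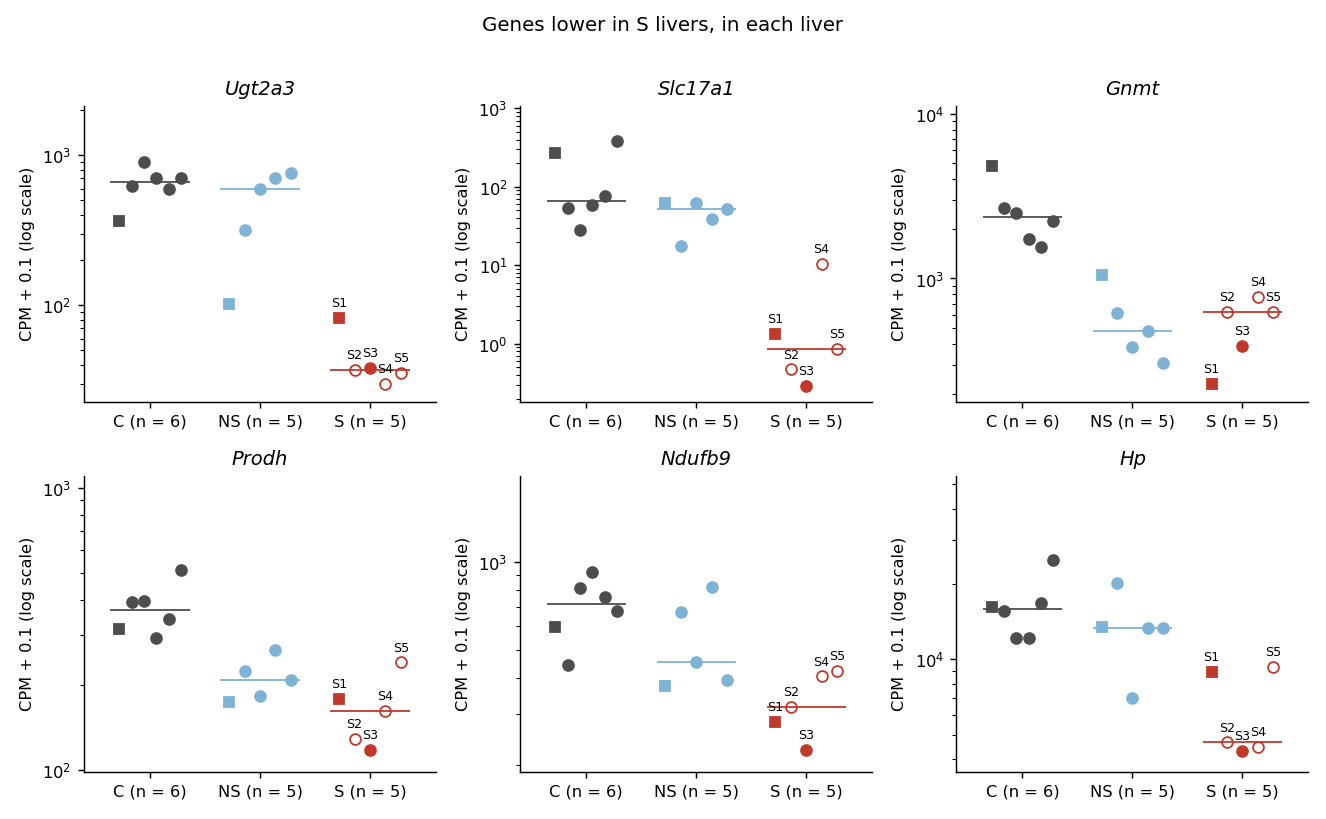
CPM plus 0.1 on a log axis for 6 genes called lower in S, in each C, NS and S animal, with the symbols and lines of the plot of lipid genes. No S animal reaches the lowest C animal for any of the 6.

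RNAs of several secreted hepatocyte proteins were lower in S. Of 20 acute-phase genes, 0 rose, 2 fell and 7 were lower at the adjusted p (median -0.53), against 0.965% and 5.36% of all genes for the last 2 counts. With 1 S or C animal left out, those lower at the adjusted p numbered 1 (without C6) to 7 (without S1 or S5). Without S3 there were 2, of which 1 was called, against 2.54% and 0.62% of all genes. Hp, which encodes the hemoglobin scavenger haptoglobin, had 8939, 4655, 4305, 4466 and 9332 CPM in S and 12135, 15868 and 24858 CPM in C (log2 fold change -1.36 ± 0.29 (SE), adjusted p = 0.0241), with no overlap. Lbp, which binds lipopolysaccharide, fell too (log2 fold change -1.42 ± 0.41 (SE), adjusted p = 0.061), although S1 and S5 lay inside the C range, and the call was lost for Lbp without C1, C5, C6, S2, S3 or S4 (-1.70 to -1.03). Of 35 coagulation and complement genes edgeR called 0 (median -0.25), 15 had an unadjusted p under 0.05, 5 were lower at the adjusted p, or 1 (without C4, C6 or S3) to 9 (without S1) with 1 S or C animal left out, and DESeq2 called 0. The 17 hepatocyte markers tested had 1 gene called lower and a median of -0.38, with a summed level of 111623, 79386, 81686, 96896 and 78616 CPM in S1 to S5, against 105250 to 140935 CPM in C. S1 lay inside the C range and the other S animals below it. In bulk tissue, a smaller share of hepatocytes and less of these RNAs per hepatocyte cannot be told apart. The 6 hepatocyte markers fixed to check the tissue and found under the listed symbols had a summed level of 44408, 29478, 32829, 35073 and 25238 CPM in S1 to S5, against 31033 to 38858 CPM in C. Of these, Apoa1, an apolipoprotein gene, had 614000 unscaled counts in the 5 S animals together and 392445 in the 6 C animals. Every other member had fewer unscaled counts in S than in C, as Ttr with 302463 against 554598. Car3, a carbonic anhydrase of liver and adipose tissue, fell from a C median of 7589.8 CPM to 4339, 1853, 3087, 1502 and 1549 CPM in S (log2 fold change -1.62 ± 0.33 (SE), adjusted p = 0.021). It was the 1 gene called of 6 adipocyte markers tested (0 higher, median 0.79), made up 96.6% of their summed level, and the defining markers Lep and Plin1 were at 0 counts in S and C.

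Genes of both ends of the liver lobule were read as well. Of 25 pericentral genes 3 fell and 0 rose (median -0.38), and of 28 periportal genes 1, Apoa4, rose and 0 fell (median -0.31). The pericentral genes were the glutamate transporter Slc1a2 (-1.38), the neutral amino acid transporter Slc1a4 (-1.69) and Por. At the adjusted p alone, 8 pericentral and 6 periportal genes were lower, against 5.36% of all genes, and with 1 S or C animal left out these numbered 3 (without C6 or S2) to 9 (without C2) and 1 (without C4) to 6 (without C2 or S5). Slc1a2 was called with each S and C animal left out in turn, while the call was lost for Slc1a4 without C1, C3, C5, C6, S1, S2, S3 or S4 (-2.73 to -1.32).

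Stress lists were tested in the same way. The unfolded protein response and heat shock list had 1 of 41 genes lower and 0 higher (median -0.31). That gene was Hspb8, a small heat shock protein (log2 fold change -1.25 ± 0.29 (SE), adjusted p = 0.032). Of 33 NRF2 and antioxidant genes, Gclc rose, 0 fell and 6 were lower at the adjusted p (median -0.08), against 5.36% of all genes, or 3 (without C5) to 8 (without C2) with 1 S or C animal left out. Among 39 genes of apoptosis and cell death, 4 rose, against 3.09% of all genes, and 0 fell (median 0.18). They were Dapk1 (1.46), a death-associated kinase, Gadd45a (1.81), Bbc3 (2.02) and Phlda3 (3.03), the last 3 known as p53 targets. Dapk1 lay above every control in all S animals, while Phlda3 was high mainly in S3, with 3.17, 0.556, 20.6, 0.61 and 1.53 CPM in S and 0, 0.693 and 1.11 CPM in C, and was not called without it (log2 fold change 1.22, adjusted p = 0.328). Leaving out single animals ended the call for Phlda3 without C4, C5, C6 or S3 (1.20 to 4.21), Gadd45a without C4 or S3 (1.53 to 2.18), Bbc3 without C3, C4, C5, C6, S1 or S2 (1.06 to 2.79) and Dapk1 without C4, C5 or C6 (1.30 to 1.71).

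Some genes of DNA replication and mitosis rose, to very different extents in single animals. Of 74 DNA replication and G1/S genes, 5 rose and 1 fell (median 0.34), against 3.09% and 0.965% of all genes. Lig1, the ligase of replication, had 29.5, 48.00, 36.8, 31.4 and 34.5 CPM in S and 9.84, 15.96 and 22.5 CPM in C (log2 fold change 1.13 ± 0.20 (SE), adjusted p = 0.0125). All S animals lay above all controls, and likewise for the helicase subunit Mcm4 (1.28) and the chromatin assembly factor Chaf1a (1.40). Ccnd1, the cyclin D1 of G1, had 3.41, 2.78, 38.5, 5.49 and 62.3 CPM in S and 1.18, 2.71 and 3.90 CPM in C (log2 fold change 3.15 ± 0.72 (SE), adjusted p = 0.031), so S3 and S5 were far above the others. Mcm6, another helicase subunit, rose (1.08) and Mcm10, an initiation factor, fell (-2.03), while the call was lost for Mcm6 without C1, C6 or S5 (0.40 to 1.34) and Mcm10 without C6, S2 or S3 (-2.31 to -1.54). Of 79 genes of mitosis and cytokinesis, 14 rose, against 3.09% of all genes, and 0 fell (median 1.27). Members above every control numbered 30, 13, 42, 21 and 65 in S1 to S5, against 24.9%, 20.6%, 26.9%, 18.3% and 22.6% of all genes, so that S2 was under the share of all genes. With 1 S or C animal left out, 4 (without S3) to 19 (without S1) were called higher.

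The levels behind the mitosis list were low, and 2 livers gave most of its rise. Top2a, the topoisomerase that separates chromatids, had 1.58, 1.11, 35.9, 0.61 and 7.34 CPM in S and 0.156, 0.584 and 1.44 CPM in C (log2 fold change 3.78 ± 0.90 (SE), adjusted p = 0.0356). S3 and S5 were high, and S2 and S4 lay in the C range. Cdk1, the kinase that starts mitosis, had 0.731, 1.30, 2.06, 0.436 and 7.25 CPM in S and 0.295, 0.602 and 0.949 CPM in C (log2 fold change 1.98 ± 0.62 (SE), adjusted p = 0.0747). Racgap1 (2.40), needed for the cleavage furrow, and Incenp (2.34), of the chromosomal passenger complex, were above every control in all S animals. Cenpf, a kinetochore protein, had at most 3 counts in each control, so no fold is given, and 0.731, 0, 2.25, 0.523 and 8.49 CPM in S. Without S3, 4 mitosis genes were called (median 1.07), without S5 alone 7 were (median 0.60), and without S3 and S5 together 1 was (median 0.30). Of all genes, 1.35% were called higher without S3, 402 of 12542 without S5 and 122 of 12287 without S3 and S5. Without those 2 livers 16 members did not reach the level for testing, and over the 63 tested in both fits the median with all animals was 0.85. Single omissions ended the call for Top2a without S3 (0.73 to 4.79), Cdk1 without C1, C3, C4, C5, C6, S3 or S5 (0.42 to 2.27), Incenp without S3 (1.56 to 2.89) and Cenpf without C6 or S5.

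Matrix genes were called mainly through S3, and S5 also had many members above the C range. Of 52 genes of stellate cells and extracellular matrix, 13 rose and 1 fell with S3 (median 0.66), against 3.09% and 0.965% of all genes, and 3 rose and 1 fell without it (median 0.22), against 1.35% and 0.62%, while DESeq2 called 6 and 1. Without S5 alone, 10 rose and 1 fell (median 0.45), where 402 and 143 of 12542 genes tested were called. Without S3 and S5 together, Dcn, which fell, was the 1 gene called, and the median was -0.22. Members above every control numbered 6, 4, 32, 8 and 30 in S1 to S5, against 24.9%, 20.6%, 26.9%, 18.3% and 22.6% of all genes. Col1a1, a chain of type I collagen, had 7.67, 3.71, 2058, 7.24 and 10.01 CPM in S and 5.00, 7.20 and 16.99 CPM in C (log2 fold change 5.56 ± 1.39 (SE), adjusted p = 0.0397). S3 stood far above all other animals, and without it the log2 fold change was -0.28 (adjusted p = 0.736). Col1a2 (25.1, 16.7, 1059, 24.2 and 47.01 CPM in S and 13.2, 18.1 and 33.4 CPM in C) and the intermediate filament gene Vim (37.6, 25.8, 2054, 38.02 and 81.3 CPM in S and 29.1, 41.04 and 78.3 CPM in C) followed the same pattern. Without S3 their log2 fold changes were 0.49 and 0.02, those of the crosslinking enzyme Lox -0.11 and of the matrix glycoprotein Thbs1 -0.19, none of them called. Mmp2, a gelatinase, was high in S3 and S5, with 1.71, 1.30, 50.9, 2.01 and 24.7 CPM in S and 0.313, 0.891 and 1.77 CPM in C (log2 fold change 4.10 ± 0.86 (SE), adjusted p = 0.0222). Ccn1, a matricellular protein, lay above every control in every S animal, with 56.9, 40.2, 70.4, 35.4 and 116 CPM in S and 1.11, 5.05 and 33.5 CPM in C (log2 fold change 2.80 ± 0.68 (SE), adjusted p = 0.036). Dcn, which encodes decorin, fell (103, 108, 135, 139.5 and 184 CPM in S and 172, 268 and 389 CPM in C, log2 fold change -1.05 ± 0.25 (SE), adjusted p = 0.0354). Mmp2 and Ccn1 were called with each S and C animal left out in turn, while the call was lost for Dcn without C3, C4, S1 or S2 (-1.24 to -0.80), Col1a1 without S3 (-0.49 to 6.87), Col1a2 without S3 (0.13 to 4.75), Vim without C4, C6 or S3 (-0.42 to 4.53), Lox without C4, C5, C6 or S3 (-0.62 to 5.76) and Thbs1 without C1, C2, C4, C5, C6, S3 or NS2 (-0.92 to 4.05).

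The stellate markers fixed to check the tissue differed from each other in S3. Their summed level was 2174 CPM in S3, against 49.3 to 133 CPM in the other S animals and 48.2 to 109 CPM in C, and Col1a1 made up most of it. Reln had 68.5 CPM in S3 (35.5 to 80.3 CPM in C), Lrat 2.06 CPM (1.38 to 3.13 CPM in C), Des 0.375 CPM (0 to 2.37 CPM in C) and Acta2 45.8 CPM (4.53 to 25.5 CPM in C). Acta2, the smooth muscle actin, exceeded the C range, as Col1a1 did, and Reln, Lrat and Des did not. Of the 52 members of the whole stellate and matrix list, 32 lay above and 4 below every control in S3. Of all genes, 26.9% lay above and 23.3% below in S3. S3 also held RNAs that were near 0 in the other 15 livers. Hoxc10, a homeobox gene of the posterior body, had 33.97 CPM in S3 and at most 0.474 CPM elsewhere, Hoxa11 14.3 CPM, Twist2, a mesenchymal transcription factor, 59.1 CPM, and Acta1, the skeletal muscle actin, 118 CPM against at most 0.882 CPM. Leaving out 1 animal ended the call for Hoxc10 without C4 or C6 (5.30 to 7.36), Hoxa11 without C1, C2, C3, C4, C5, C6, S2, NS2, NS3 or NS5 and Acta1 without S3 (-1.10 to 7.02). Without S3, Hoxc10, Hoxa11 and Twist2 did not reach the level for testing and so were not called. Of the 127 genes that stood apart in S3, 82 were among the 391 called higher. The source of these RNAs was not tested.

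Macrophage genes were high in S5. Of 31 Kupffer cell and macrophage markers, 1 rose and 0 fell (median 0.58), and 25 lay above every control in S5, against 1, 6, 3 and 6 in S1 to S4, where 24.9%, 20.6%, 26.9%, 18.3% and 22.6% of all genes did in S1 to S5. In S1, 19 lay below every control, against 20.7% of all genes. Without S5 the median of the list was -0.00530, and in the male animals alone it was -0.56. The summed level was 468, 1245, 783, 1481 and 2397 CPM in S1 to S5, against 691 to 1155 CPM in C. Its most abundant gene was Slc40a1, the iron exporter ferroportin, with 82.96, 354, 160.5, 508 and 416 CPM in S and 88.4, 122 and 159 CPM in C (log2 fold change 1.31 ± 0.35 (SE), adjusted p = 0.0486). The 3 females were highest, S1 lay below every control, and the call was lost for Slc40a1 without C4 (-0.02 to 1.60). Of the Kupffer markers Clec4f, Vsig4 and Marco, Clec4f lay within or below the C range in all S animals, with 46.3, 139.7, 86.3, 134 and 134 CPM against 58.1, 85.3 and 158 CPM in C. S5 exceeded the controls for Vsig4 (92.6 CPM against at most 39.4) and Marco (288 CPM against at most 159), and S2 did so for Vsig4 (43.2 CPM). Mmp12, the macrophage elastase, had 99.8 CPM in S5 and at most 1.13 CPM in any other animal, and no fold is given because each control had at most 3 counts. It was not called without S5. Whether more macrophages or more RNA per macrophage lay behind S5 was not tested.

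The neutrophil genes S100a8 and S100a9 were lower in every S animal than in any control. S100a8 had 4.39, 4.08, 3.57, 1.83 and 6.10 CPM in S and 8.76, 13.04 and 30.8 CPM in C (log2 fold change -1.98 ± 0.52 (SE), adjusted p = 0.0452), and S100a9 had 6.94, 9.45, 7.88, 2.35 and 13.1 CPM in S and 15.8, 25.6 and 42.9 CPM in C (log2 fold change -1.77 ± 0.48 (SE), adjusted p = 0.0497). Both encode subunits of calprotectin and were called with each S and C animal left out in turn. They were not called in the male animals alone (log2 fold changes -1.98 and -1.87, adjusted p = 0.16 and 0.122). Nor were they without S3 and S5 together (log2 fold changes -2.23 and -2.15, adjusted p = 0.114 and 0.1). The differences were about as large there as with all animals. Cxcl1, a neutrophil chemokine, fell as well, with 1.34, 0.371, 0.939, 0.436 and 6.87 CPM in S and 2.31, 43.00 and 48.6 CPM in C (log2 fold change -3.88 ± 1.26 (SE), adjusted p = 0.0832), S5 being the only S animal in the C range, and the call was lost for Cxcl1 without C1, C4, C5, C6, S1, S2, S3 or S4 (-5.42 to -3.44). These were the 3 genes called lower of 23 neutrophil and monocyte markers, of which 0 were higher (median -0.06). Lcn2 made up 67.4% of the summed level of that list, 247, 257, 539, 105 and 197 CPM in S1 to S5, against 243 to 885 CPM in C. Among 43 lymphocyte markers, Cd79b, of the B cell receptor, rose (log2 fold change 1.83 ± 0.51 (SE), adjusted p = 0.0554) and 0 fell (median 0.41), at no more than 1.83 CPM in any animal, and the call was lost for Cd79b without C4, C6 or S4 (1.40 to 2.09). The summed level of the list was 65.8, 85.1, 47.1, 92.2 and 198 CPM in S1 to S5, against 55.4 to 104 CPM in C.

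Other cell types were read from their markers. Of 35 endothelial markers 1 rose and 0 fell (median 0.13), namely Sox18 (1.09), a vascular transcription factor, and the summed level was 481, 876, 824, 966 and 1106 CPM in S1 to S5, against 600.1 to 869.97 CPM in C. Of 24 bile duct and progenitor markers 2 rose and 0 fell (median 0.23). Ezr (1.29), which links membrane and actin, was highest in S3. The call was lost for Sox18 without C1, C3, C4, C5, C6, S4 or S5 (0.60 to 1.44) and Ezr without C4 or S3 (0.40 to 1.84). Of 6 exocrine pancreas and gut markers edgeR called 0 (median 0.59), with 0 at an unadjusted p under 0.05 and 0 by DESeq2. Their summed level was 20.2, 2.22, 3.00, 5.67 and 4.48 CPM in S1 to S5, against 3.33 to 7.58 CPM in C, most of it Cela1, and Pnlip was at 0. S1 was the only S animal above the C range, and it also had 479 CPM of Scgb1a1, an airway secretory protein, against at most 2.66 CPM in the other animals. Without S1 the log2 fold change of Scgb1a1 was -2.95, and the call was lost for Scgb1a1 without C4, C6 or S1 (-2.95 to 10.05). Of 4 erythroid markers edgeR called 0 (median 0.76), 1 had an unadjusted p under 0.05, DESeq2 called 0, and Alas2 had 7.31, 1.30, 5.44, 4.80 and 5.44 CPM in S and 1.56, 3.76 and 5.51 CPM in C. Hemoglobin genes and Alb were not analysed here.

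A1bg, Srd5a1 and Socs2 were higher in the 3 females of S than in both males. Srd5a1 is on the list of genes higher in male mice. Cd36 and Lifr, called and on the list higher in female mice, did not separate the females from the males of S. For Socs2, the male NS3 had 30.1 CPM and lay above the female S5. A1bg, a plasma protein gene higher in female mice, had 1.83, 189, 0, 381 and 128 CPM in S and 0.139, 0.457 and 2.66 CPM in C (log2 fold change 7.28 ± 1.47 (SE), adjusted p = 0.0207). S2, S4 and S5 lay above every male, and S1 and S3 within the C range or below it. Srd5a1, a steroid 5α-reductase, had 24.4, 100.5, 21.4, 94.2 and 181 CPM in S and 10.1, 17.4 and 33.2 CPM in C (log2 fold change 2.15 ± 0.48 (SE), adjusted p = 0.0281), again with the females of S above and the males of S inside the C range. The males NS1 (71.98 CPM), NS3 (33.8 CPM) and NS4 (51.1 CPM) also lay above the C range for Srd5a1. Socs2, an inhibitor of growth hormone signaling, had 4.75, 56.9, 1.13, 70.4 and 9.06 CPM in S and 1.56, 3.56 and 7.21 CPM in C (log2 fold change 2.93 ± 0.89 (SE), adjusted p = 0.0681), high in S2 and S4, and the call was lost for Socs2 without C1, C3, C4, C5, C6, S2 or S4 (-0.29 to 3.56). Among the 391 genes called higher, 11 lay above the C range in S2, S4 and S5 and in neither male, while 18 did so in S1, S3 and S5 alone and 17 in S2, S3 and S5 alone. S3, S4 and S5 alone had 15 and S1, S2 and S3 alone 14, so the 3 females were not the most frequent set of 3. They were the most frequent among the sets of 3 without S3.

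**Figure D5:**
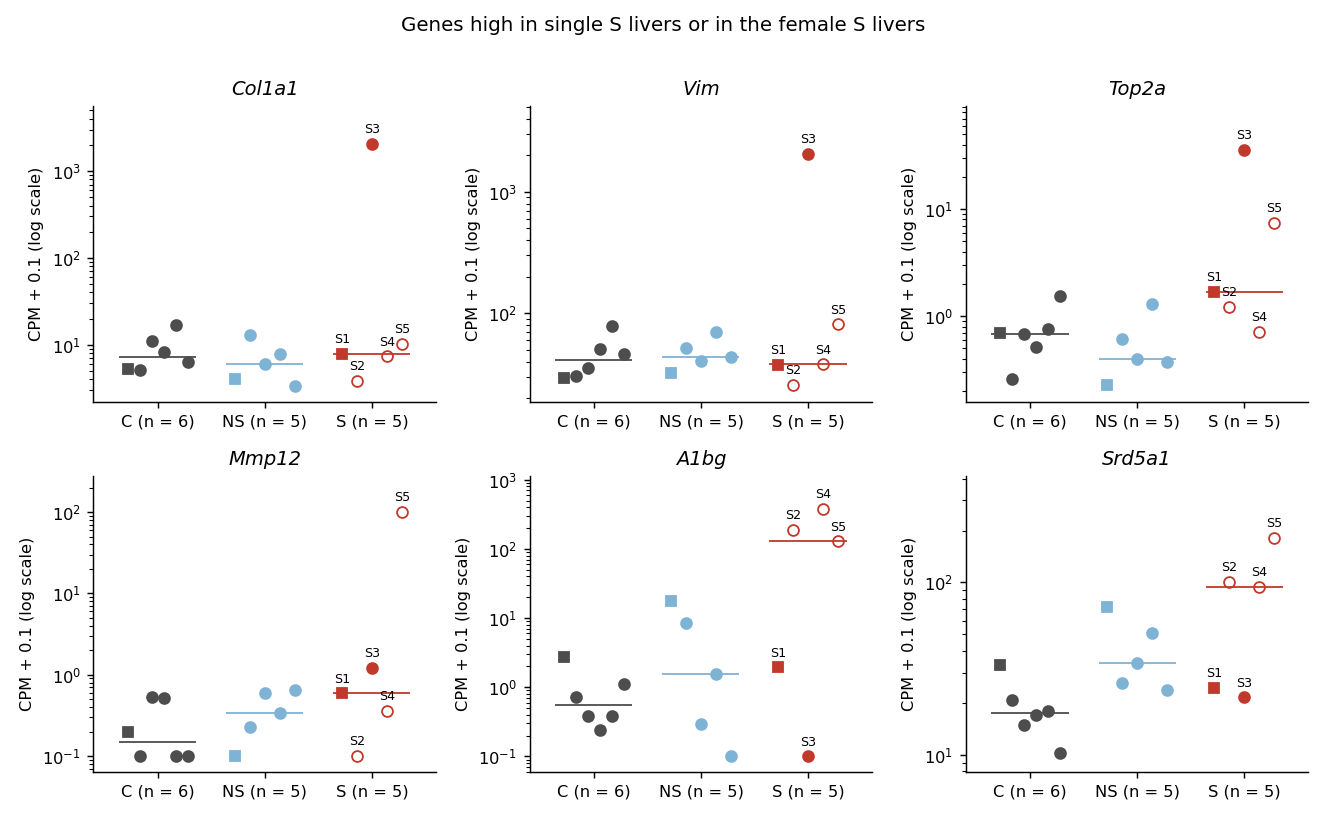
CPM plus 0.1 on a log axis for 6 genes in each C, NS and S animal, with squares for SM2 animals, circles for BW animals, open symbols for females and lines at the group medians. Col1a1 and Vim are high in S3 alone, Mmp12 in S5 alone, Top2a in S3 and S5, and A1bg and Srd5a1 in the females S2, S4 and S5. For Srd5a1, the males NS1, NS3 and NS4 also lie above every C animal.

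The lists of sex-biased genes were read for S and C as wholes, and females were not tested against males. Of 28 genes higher in female mouse liver, 3 rose (A1bg, Cd36 and the receptor gene Lifr, 1.25) and 1, the aldehyde dehydrogenase Aldh3a1, fell, with 52.4 CPM in C5 and at most 2.60 CPM in any other animal, for a median of 0.03. Of 14 genes higher in male mouse liver, Srd5a1 rose and Cyp7b1 fell (median -0.51). The male animals alone left in S only S1, the SM2 animal, and S3, the liver in which 127 genes stood apart. In that fit, 534 genes were called higher and 145 lower, and 252 and 46 of them were also called with the females. There, Acly and Apoa4 were still higher (3.27 and 4.63) and Ugt2a3 and Slc17a1 lower (-3.42 and -7.49, all log2 fold changes), and A1bg (0.19, adjusted p = 0.96) and Srd5a1 (0.27, adjusted p = 0.75) were not called. Of the 102 called genes named in this text, 45 were not called in the male animals alone, namely Cd36, Fabp1, Hilpda, Fdft1, Cyp7b1, Cyp1a1, Cyp2d22, Cyp3a13, Ugt2a2, Por, Pck2, Gys2, Pygb, Gpt, Tdo2, Acmsd, Sardh, Etnk2, Cox7a1, Cdk1, Mcm6, Mcm10, Chaf1a, Slc40a1, S100a8, S100a9, Cxcl1, Cd79b, Sox18, Mmp12, Lbp, Acvr1, Socs2, Srd5a1, A1bg, Lifr, Aldh3a1, Slc1a2, Slc1a4, Dapk1, Rab8b, Sytl5, Slc16a1, Slc16a13 and Car3. A lost call with 2 S animals left is not a lost difference. In the male animals alone, log2 fold changes stayed about as large or grew for some of these genes. They were -1.98 for S100a8, -4.74 for Cxcl1, -3.63 for Hilpda and 1.54 for Dapk1. For others they shrank, as for Mcm6 (0.40), Lifr (0.51) and Slc40a1 (-0.0179). Single omissions ended the call for Lifr without C4, C5, C6, S2, S3 or S4 (0.51 to 1.60) and Aldh3a1 without C3, C4, C5, C6, S1, S2, S3, S4 or NS2 (-7.46 to -1.19).

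Regulatory and remaining lists were tested in the same way. Of 24 genes of iron handling, 3 rose (Slc40a1, Acvr1 at 1.06 and Smad7 at 1.44, the last 2 a receptor and an inhibitor in BMP signaling) and 1, Hp, fell (median 0.24), against 3.09% and 0.965% of all genes. Among 32 genes of the growth hormone and IGF axis, Socs2 and the activin subunit Inhba (2.15) rose and 0 fell (median 0.13). The 30 genes of vesicle traffic had 2 higher, Rab8b (1.05) and Sytl5, and 1 lower, Rab38 (-2.36), a Rab GTPase of lysosome-related organelles (median 0.35). Sytl5 had at most 1 count in each control, so no fold is given. Leaving out 1 animal ended the call for Acvr1 without C5, C6 or S2 (0.71 to 1.28), Smad7 without S3 (1.06 to 1.68), Inhba without S3 (1.50 to 3.02), Rab8b without C1, C4, C5, C6, S2 or S3 (0.55 to 1.29) and Sytl5 without C6. By edgeR 0 genes were called among 28 nuclear receptors (median 0.12, 5 at an unadjusted p under 0.05, 0 by DESeq2), 24 genes of the circadian clock list (median 0.14, 4 and 1) and 45 interferon response and antigen presentation genes (median 0.20, 8 and 1). The clock list includes Tars, a threonyl-tRNA synthetase gene and not a clock gene, which was among the 4. Hnf4a, the receptor that maintains hepatocyte identity, had 158, 325, 257, 266 and 195 CPM in S and 187, 231 and 325 CPM in C (log2 fold change 0.01 ± 0.21). B2m, the light chain of MHC class I, had 1398, 813, 321, 594 and 731 CPM in S and 882, 927 and 1481 CPM in C (log2 fold change -0.39 ± 0.27), with S3 lowest. In all, 35 of the 43 lists had at least 1 member called. The 8 without one held 216 genes tested, of which 69 had an unadjusted p under 0.05 and 2 were called by DESeq2.

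Among the genes with the smallest p-values were some outside the lists. Prss35, a serine protease homolog, had 42.8, 22.4, 60.3, 29.1 and 26.4 CPM in S and 0, 2.72 and 6.77 CPM in C (log2 fold change 3.67 ± 0.65 (SE), adjusted p = 0.0128). Trp53bp1, a DNA double-strand break repair protein, had 14.4, 11.5, 20.5, 13.95 and 14.97 CPM in S and 6.00, 6.74 and 10.1 CPM in C (log2 fold change 1.06 ± 0.19 (SE), adjusted p = 0.0125), and Agfg1, which acts in vesicle trafficking, 21.3, 18.3, 38.7, 18.1 and 24.99 CPM in S and 9.39, 11.7 and 12.6 CPM in C (log2 fold change 1.09 ± 0.19 (SE), adjusted p = 0.0125). All 3 were higher in every S animal than in any control, and without S3 the last 2 had log2 fold changes of 0.93 and 0.86 and were no longer called.

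With S1, C1 and NS1 left out, S held the females S2, S4 and S5 and the male S3, against males only in C. These BW animals alone gave the same direction for the leading genes. There the log2 fold change was 1.71 for Fads1 (adjusted p = 0.00253), 3.84 for Apoa4 (adjusted p = 0.0261), -4.33 for Ugt2a3 (adjusted p = 6.48e-07) and -1.83 for Gnmt (adjusted p = 0.00413). Of the lipogenesis list 5 genes were called higher, of the mitosis list 20, of the matrix list 12 higher and 1 lower, and of the respiratory chain list 2 lower. The medians of these lists were 1.28, 1.39, 0.74 and -0.67. Of the 102 called genes named in this text, 17 were not called in the BW animals. The adjusted p was not passed there by Pnpla3, Gpam, Fabp1, Fdft1, Cyp1a1, Chka, Cxcl1, Sox18, Aldh3a1, Slc1a4, Bbc3, Slc34a2 and Hoxa11, the difference was under 2-fold for Tdo2, Sardh and Etnk2, and Scgb1a1 was not tested.

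S was compared with NS, which received the same diet, by a contrast in the same fit, since NS vs C and S vs C share their controls. All 5 NS animals were males, so sex and steatosis cannot be told apart in this contrast either. NS vs C gave 9 called genes (0.0712%), and S vs NS gave 1 (0.00791%), with 1381 genes at an unadjusted p under 0.05 and 71 genes called by DESeq2. With sex as a covariate S vs NS gave 191 calls, and in the male animals alone, with only S1 and S3 left in S, 157. By edgeR without covariates the gene was Ugt2a3, with 102, 319, 594, 707 and 764 CPM in NS1 to NS5 (log2 fold change S vs NS -3.48, adjusted p = 0.00651). NS1, an SM2 animal, was lowest and still above S1, the SM2 animal and highest of S. For Fads1 and Gnmt all NS livers lay outside the C range, as the S livers did, while 3 NS livers for Nnmt and 4 for Slc17a1 lay inside it. Fads1 had 649, 521, 615, 383 and 645 CPM and Gnmt 1046, 616, 383, 482 and 305 CPM in NS1 to NS5. Log2 fold changes of S vs C and NS vs C were 1.63 and 1.61 for Fads1, 4.34 and 3.45 for Apoa4, and -2.29 and -2.19 for Gnmt. For Cd36 they were 1.18 and -0.24, and for Slc17a1 -5.64 and -1.63, with adjusted p = 0.211 and 0.251 for S vs NS. List medians of S vs C and NS vs C were 1.55 and 0.89 for lipogenesis, -0.60 and -0.21 for the respiratory chain, -0.46 and -0.37 for amino acid catabolism and 1.27 and 0.08 for mitosis. Of the 79 mitosis members, 16 reached the level for testing only with S3 and S5 present, so these 2 medians are not compared. Over the 63 others the S vs C median was 0.85. A p that missed the threshold in S vs NS does not show that both outcomes were alike.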

How the data were processed

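The authors aligned paired-end reads of a directional library kit with STAR 2.7.2 to HU_Pman_2.1 and counted them per gene with featureCounts, and they deposited raw counts by gene symbol for 16910 genes. The strand setting of the counting and the conversion to symbols were not given, so overlapping genes and paralogs are uncertain. The animals, the comparison, the gene lists and the named-genes rule were chosen with earlier results of these data known.

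Counts were tested in R 4.3.3 with edgeR 4.0.16 (limma 3.58.1) by the quasi-likelihood test after TMM scaling, in 1 fit of all 16 animals without covariates, keeping 12639 genes that reached 0.5 CPM in 1 animal or more. Genes were called at a Benjamini-Hochberg adjusted p under 0.1 combined with a 2-fold difference or more. No fold is given against a group whose animals all had 3 counts or fewer. The fits were tested on simulated data.

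Named were the 10 called genes of smallest p and the 6 most abundant in each direction, up to 4 called members of each list (the most abundant where none was called) and cell type markers, of which some are not reported here. Chosen after their values were seen were Acaca, Pnpla3, Scd1, Elovl5, Lpcat3, Gpat4, Pkm, Acmsd, Sardh, Chka, Cenpf, Cdk1, Mcm6, Mcm10, Col1a2, Vim, Lox, Thbs1, Slc34a2, Hoxc10, Hoxa11, Acta1, Twist2 and Scgb1a1.

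Alternatives were DESeq2 1.42.0, RLE or total-count scaling, other filters, sex or stock as a covariate, BW, male or S and C animals alone, an adjusted p under 0.05 and each S or C animal left out. Chosen after seeing the data were the fits without S3 and S5, without S2 and S3, without each NS animal, with thinned counts and with robust dispersions. Figures were drawn with matplotlib 3.10.9.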

Additional observations from a re-analysis of the deposited data

Results flagged for a closer look

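Groups of values, S or C, were examined for 118 of the genes named. In 44 of 236 groups, the highest animal lay far from the others relative to the range of its group. Chance gives about 1 in 20 groups for normally distributed values, but several genes were named because 1 animal stood out and the distribution of CPM was not checked, so the count is not compared with it. Of the groups, S3 gave 11 and C1 8. The levels below are in CPM, and the second of each pair is the next highest animal of the same group. C1 had 258 against 185 for Fads1, 43.4 against 19.3 for Cyp2d22, 79.1 against 23.9 for Ugt2a2 and 116 against 40.6 for Acmsd. It also had 4806 against 2679 for Gnmt, 2.66 against 0.998 for A1bg, 5.90 against 3.13 for Cela1 and 2.66 against 0.144 for Scgb1a1. C3 had 166 against 81.6 for Fdft1, 33.5 against 8.74 for Ccn1 and 10.1 against 7.40 for Trp53bp1. C4 had 3868 against 2744 for Tdo2 and 1481 against 943 for B2m. C5 had 2.37 against 0.867 for Des, 25.5 against 8.76 for Acta2, 52.4 against 2.60 for Aldh3a1 and 0.474 against 0.156 for Hoxc10. C6 had 212 against 34.3 for Apoa4, 13.4 against 5.79 for Mcm10 and 24858 against 16857 for Hp. S1 had 82.4 against 38.1 for Ugt2a3, 14.6 against 3.89 for Bbc3, 129 against 75.2 for Slc17a3 and 12.7 against 2.79 for Cela1. It also had 479 against 0.174 for Scgb1a1. S2 had 32.8 against 18.5 for Acvr1. S3 had 35.9 against 7.34 for Top2a, 2058 against 10.01 for Col1a1, 1059 against 47.01 for Col1a2 and 2054 against 81.3 for Vim. It also had 42.05 against 0.741 for Lox, 298 against 17.4 for Thbs1, 20.6 against 3.17 for Phlda3 and 33.97 against 0.185 for Hoxc10. It also had 14.3 against 0.122 for Hoxa11, 118 against 0.487 for Acta1 and 59.1 against 0.191 for Twist2. S4 had 1.83 against 0.853 for Cd79b and 10.3 against 1.22 for Slc17a1. S5 had 8.49 against 2.25 for Cenpf, 7.25 against 2.06 for Cdk1, 6.87 against 1.34 for Cxcl1 and 99.8 against 1.13 for Mmp12. It also had 1.05 against 0.188 for Aldh3a1.

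The change of Ugt2a3, a UDP-glucuronosyltransferase, differed between S and NS by a log2 fold change of -3.48 in the edgeR contrast of S with NS (adjusted p = 0.00651), and all 5 S animals lay below all 5 NS animals.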

How the results depend on the processing

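Counts of genes called in S vs C stayed within 1.5 times of 513 (391 higher and 122 lower) with DESeq2, RLE scaling, both other filters, the S and C animals alone, stock as a covariate, BW or male animals alone, thinned counts and robust dispersions. With RLE scaling and robust dispersions every gene called was among the 513, and with the others only a part. Total-count scaling gave 927 calls (843 higher), sex as a covariate 598 higher, and an adjusted p under 0.05 left 209 (142 higher and 67 lower). Without S3 and S5 the calls were 191 (122 higher and 69 lower), and without S2 and S3 they were 114 (79 higher and 35 lower), with members called in 19 lists, against 35. With 1 animal left out the calls ranged from 192 (without C6) to 573 (without S1), the higher ones from 129 to 435, the lower ones from 63 to 145, and the lists with a call from 28 to 38.

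The S vs NS contrast called 1 gene, 71 with DESeq2, 191 with sex and 17 with stock as a covariate, 18 in BW animals, 157 in male animals and 5 with thinned counts. It ranged from 1 to 15 with 1 animal left out. By edgeR it called 0 without S3 and S5 (690 genes at an unadjusted p under 0.05) and 0 without S2 and S3 (811 genes), where DESeq2 was not run, and it does not exist in the fit of S and C animals alone. The cause was not tested.

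Log2 fold changes turned negative for Slc40a1 (-0.0185) and Socs2 (-0.28) with sex as a covariate, and for Slc40a1 (-0.0179) and Socs2 (-0.29) in male animals, where females were adjusted for or left out. They did so for Pkm (-0.15), Col1a1 (-0.49), Vim (-0.42), Thbs1 (-0.92) and Acta1 (-1.10) without S3 and S5, and for Col1a1 (-0.0802), Lox (-0.62) and Acta1 (-0.50) without S2 and S3. With 1 animal left out they ranged from -0.28 to 5.89 for Col1a1, -0.11 to 4.79 for Lox, -0.19 to 3.19 for Thbs1 and -0.80 to 6.02 for Acta1, each lowest without S3, and from -2.95 without S1 to 10.05 for Scgb1a1. How much counting error adds to the ratios of genes with few counts was not tested.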
